A study of Drosophila melanogaster with 6 samples.

Results

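The regions described here were bound by Jarid2 and not by Polycomblike (Pcl), and lay close to a place where Pcl was bound, in chromatin of Drosophila melanogaster embryos. Peaks of the 4 deposited lists (Jarid2 A, Jarid2 B, Pcl A and Pcl B) were merged where they overlapped or touched. A merged region was kept when both Jarid2 lists and neither Pcl list held a peak in it, when it lay on arm 2L, 2R, 3L or 3R, and when its nearest edge was 50 kb or less from a peak of either Pcl list. These criteria gave 277 regions (near regions) of the 7007 merged regions of all sequences. Without Jarid2 B, when Jarid2 A alone defines a Jarid2 region, they would give 624. The regions were chosen by the peak calls of these same lists, so their number and the absence of Pcl from them are a description and not a finding.

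Both proteins are accessory subunits of Polycomb repressive complex 2 (PRC2), the complex that methylates lysine 27 of histone H3 and so marks silenced developmental genes. The catalytic subunit in flies is E(z). Pcl and Jarid2 belong to different variants of the complex, usually called PRC2.1 for the variant with Pcl-type subunits and PRC2.2 for the variant with Jarid2 and Jing. In flies PRC2 is brought to DNA at Polycomb response elements and can spread its mark over long domains, so that strong Pcl sites are often wide and lie in groups.

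The embryos were 12 to 24 h old and expressed BioTAP-Jarid2 or BioTAP-Pcl, proteins fused to a tandem tag that binds first IgG and then streptavidin beads. Each protein had 2 immunoprecipitated libraries, A and B, and 1 input library without a peak list, which entered no comparison. The labels give no driver for the tagged proteins, and do not say whether A and B came from separate embryo collections. Jarid2 and Pcl libraries were named for different sequencing lanes, so lane and protein cannot be told apart. The lists held 1055 to 5173 peaks, and the read depth behind them is unknown. Tissue of the embryo cannot be resolved, because whole embryos were used: a weak peak in few cells and a weak peak in all cells cannot be told apart. With 2 libraries against 2 the smallest p that an exact permutation test over libraries allows is 0.333, so no difference was tested, and the intervals given cover counting error only.

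On the 4 arms, 740 merged regions were called in both Jarid2 lists, and 116 of these also held a Pcl peak. The other 624, by coincidence the same number as the near regions without Jarid2 B, were Jarid2-only regions, 11% of the 5682 merged regions on these arms. Of the 624, 44.4% were near regions (Wilson 95% interval 40.5 to 48.3%). The remaining 347 lay more than 50 kb from any Pcl peak (far regions). To read this share, an interval of 313 bp, the median width of the Jarid2-only regions, was moved along the arms in steps of 100 bp, and the positions off every Pcl peak (open positions) were counted. Of the open positions 41.1% lay within 50 kb of a Pcl peak. There were 7.40 Jarid2-only regions per Mb of open positions within 50 kb (exact Poisson 95% interval 6.55 to 8.32) and 6.46 per Mb beyond it (5.79 to 7.17). These intervals overlapped, and the ratio of the near density to the far one was 1.15 (exact 95% interval 0.98 to 1.35). A difference in density between near and far was thus not resolved at the scale of 50 kb, and equal density was not shown.

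Each arm held near regions in a share close to that of its open positions. On 2L 75 of 158 Jarid2-only regions were near regions, or 47.5%, against 42.6% of positions. On 2R the share was 40.1% of 137 regions against 40.8% of positions. On 3L it was 45.5% of 178 against 42.1%, and on 3R it was 43.7% of 151 against 39.0%. The 95% interval of the regions' share held the share of positions on every one of the 4 arms.

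The nearest Pcl peak lay at a median of 15845 bp from a near region (95% interval of the median 13332 to 18802), with quartiles of 4705 and 29906 bp. The median over open positions within 50 kb was 18521 bp. The distances ran from 2 to 49596 bp. The closest of all was on 3R from 21341708 to 21342273, 2 bp from a Pcl B peak of 151 bp, where Jarid2 A had a fold enrichment of 4.71 and Jarid2 B one of 4.55. Next came a region on 3L from 9540219 to 9540516 at 35 bp, where Jarid2 A had a fold of 3.69 and Jarid2 B one of 2.02. A region on 3L from 5838258 to 5838857 lay at 57 bp, one on 2L from 8010573 to 8010823 at 59 bp and one on 2R from 18401382 to 18401639 at 80 bp. The fold of the nearest Pcl peak was between 2.05 and 3.24 at these 5 regions. All 5 of those Pcl peaks were called in 1 Pcl list alone, as were the nearest peaks of 77.6% of open positions within 2 kb of Pcl.

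Jarid2-only regions lay close to the limit of 50 kb on both sides. The 5 near regions just inside it lay at 48436, 48922, 49353, 49460 and 49596 bp, with Jarid2 A folds of 2.41 to 3.48. The 5 far regions just outside it lay at 50408, 50456, 51415, 51562 and 51577 bp, with Jarid2 A folds of 2.87 to 3.38.

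Within 50 kb no difference in density between bands was resolved except in the last stretch before a Pcl peak, and an even spread was not shown. Between 25 and 50 kb from Pcl there were 95 regions, or 6.71 per Mb (5.43 to 8.20), and between 10 and 25 kb there were 87, or 7.70 per Mb (6.16 to 9.49). Between 5 and 10 kb 25 regions gave 5.45 per Mb (3.53 to 8.04), and between 2 and 5 kb 18 regions gave 5.24 per Mb (3.11 to 8.28). Within 2 kb 52 regions gave 13.2 per Mb (9.85 to 17.3). The last interval overlapped none of the other 4, which all overlapped one another and the far regions.

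**Figure D1:**
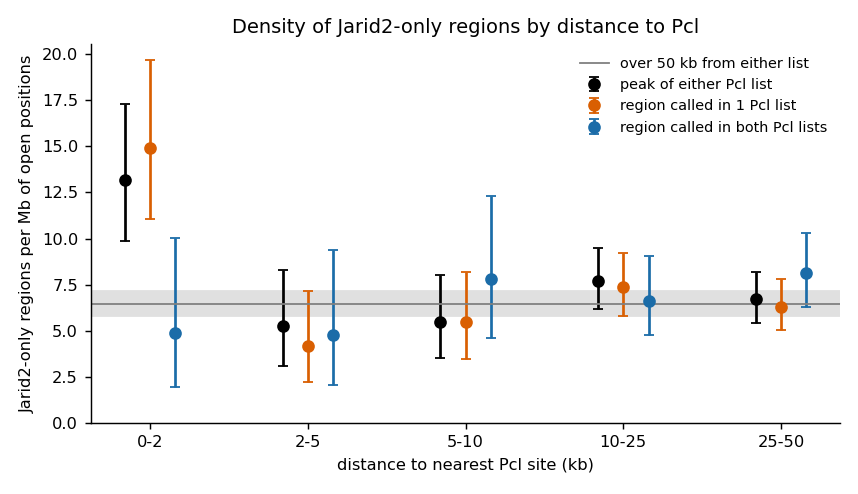
Jarid2-only regions per Mb of open positions (vertical axis) in 5 bands of distance to the nearest Pcl site in kb (horizontal axis), with exact Poisson 95% intervals. Black marks use peaks of either Pcl list, orange marks use Pcl regions called in 1 list and blue marks those called in both lists; the grey line and band are the far regions at 6.46 per Mb. Black and orange stand above the grey band at 0 to 2 kb, at 13.2 and 14.9 per Mb, and blue does not, at 4.87 per Mb.

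The 52 regions within 2 kb made up 18 of the near regions on 2L, 8 on 2R, 15 on 3L and 11 on 3R. Positions within 2 kb of Pcl were 10.5% of the open positions within 50 kb and 4.32% of all open positions. The density in this band was 1.96 times that between 2 and 50 kb (exact 95% interval 1.42 to 2.66). Divided further, it was 15.4 per Mb up to 500 bp (9.79 to 23.2), 18.95 per Mb from 500 bp to 1 kb (11.2 to 30.0) and 7.32 per Mb from 1 to 2 kb (3.65 to 13.1). The intervals of these 3 stretches overlapped, so they were not separated. This band was chosen after the densities had been seen. The ratio depended on the lists used. It was 1.06 without Pcl A (0.675 to 1.61), a setting that also changes which regions count as free of Pcl. With the same 624 regions and distance taken to Pcl B peaks it was 1.52 (0.918 to 2.41). It was 0.761 when all lists, Jarid2 and Pcl, were cut to their 1055 strongest peaks (0.319 to 1.56), and 1.60 with peaks of q at or below 1e-05 alone (0.907 to 2.66). Without Pcl B it was 1.68 (1.18 to 2.34), without Jarid2 A 1.83 (1.35 to 2.45) and without Jarid2 B 2.10 (1.71 to 2.55).

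Most of the close regions stood beside Pcl peaks that only 1 Pcl library held. Pcl regions called in both Pcl lists had 7 Jarid2-only regions within 2 kb, or 4.87 per Mb (1.96 to 10.0), against 7.28 per Mb between 2 and 50 kb (6.09 to 8.62). Pcl regions called in Pcl A alone had 37 within 2 kb, or 12.9 per Mb (9.08 to 17.8), against 6.44 per Mb between 2 and 50 kb (5.53 to 7.46). Those called in Pcl B alone had 18, or 21.2 per Mb (12.5 to 33.5), against 6.02 per Mb (4.83 to 7.42). The ratio of the 2 densities was 0.669 at Pcl regions of both lists (0.264 to 1.42), 2.00 at those of Pcl A alone (1.37 to 2.87) and 3.51 at those of Pcl B alone (1.99 to 5.88). Pcl peaks wider than 1000 bp, as seen in long Polycomb domains, had 2 Jarid2-only regions within 2 kb, or 4.66 per Mb (0.564 to 16.8). Of the 52 closest regions, 47 had a nearest Pcl peak that 1 Pcl list alone called, or 90.4% (Wilson 95% interval 79.4 to 95.8%), while 77.6% of the open positions within 2 kb did.

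The same bands were counted for weaker Jarid2 sites, which the criteria of the near regions leave out. Regions called in Jarid2 A alone, with no Pcl peak, numbered 675 on the 4 arms. Within 2 kb of Pcl they reached 17.8 per Mb (13.8 to 22.4) and between 2 and 50 kb 7.97 per Mb (7.04 to 8.99), a ratio of 2.23 (1.69 to 2.91). Regions called in Jarid2 B alone numbered 74, and their ratio of 0.796 rested on 3 regions within 2 kb (0.156 to 2.55).

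Near regions were placed among lone and grouped Pcl peaks much as open positions were. A Pcl cluster was defined as 3 or more merged Pcl peaks with gaps of 10 kb or less. The 4 arms held 172 clusters with a median length of 20.7 kb, and 93.2% of all Pcl peaks on these arms were part of one. They also held 63 pairs of merged Pcl peaks and 277 lone ones, by coincidence as many as there were near regions. Inside the span of a cluster lay 12 near regions, or 4.33% (Wilson 95% interval 2.50 to 7.42%), against 5.67% of the open positions within 50 kb. Outside clusters, 72 near regions had a cluster as their nearest Pcl site (26.0%, against 28.2% of positions). A pair was nearest to 33 (11.9%, against 11.6%) and a lone peak to 160 (57.8%, against 54.6%). The share of positions lay inside the interval of the regions' share in all 4 kinds of place. The share inside clusters depended on the libraries: it was 2.03% without Pcl A, 1.56% without Pcl B and 6.73% at most when a Jarid2 library was left out. Pcl peaks stood within 50 kb on both sides of 55 near regions, or 19.9% (15.6 to 24.95%), against 24.3% of positions. For 120 near regions, or 43.3%, a single merged Pcl peak was all that lay within 50 kb, against 41.2% of positions.

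Within 2 kb, with the lists as deposited, density was higher beside lone Pcl peaks than inside clusters. Within 2 kb of a lone Pcl peak there were 31 near regions, or 28.0 per Mb (19.0 to 39.8). Inside clusters there were 9 within 2 kb of a Pcl peak, or 4.9986 per Mb (2.29 to 9.49). Beside clusters there were 6, or 8.77 per Mb (3.22 to 19.1), and beside pairs 6, or 17.0 per Mb (6.25 to 37.1). The interval at lone peaks overlapped neither that inside clusters nor that of the far regions. It was 29.3 per Mb at lone peaks called in Pcl A alone (20 regions, 17.9 to 45.3), 40.2 at those called in Pcl B alone (9 regions, 18.4 to 76.3) and 10.0 at those called in both (2 regions, 1.21 to 36.1). Without Pcl A the density beside lone peaks was 20.4 per Mb, and without Jarid2 B, which leaves every Jarid2 A region in, it was 58.8. It was 15.2 per Mb with only peaks of q at or below 1e-05 (7.61 to 27.3), and 8.30 with lists of equal length (2.26 to 21.2). Both of these intervals overlapped the one inside clusters given above, and the interval with equal lengths also overlapped that of the far regions. Density inside clusters is not given in these settings, so the difference between lone peaks and clusters is shown for the deposited lists only.

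**Figure D2:**
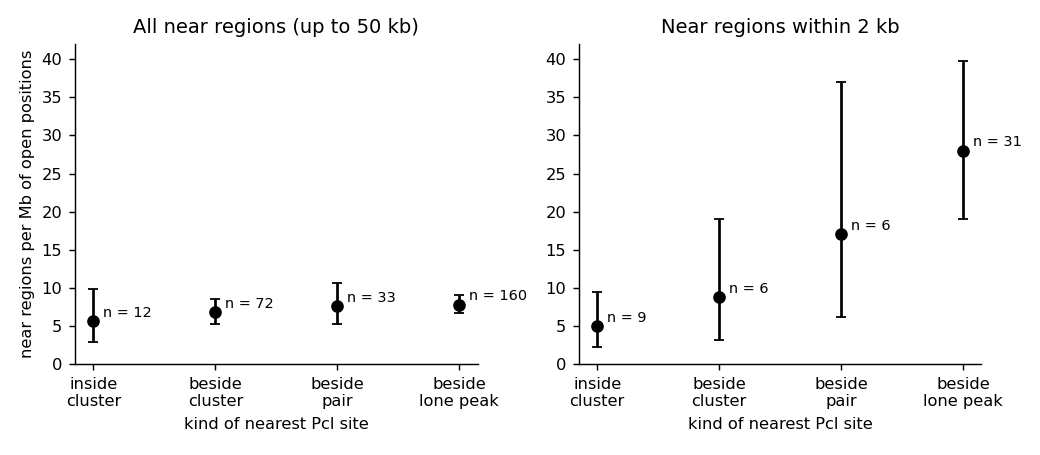
Near regions per Mb of open positions (vertical axes) by the kind of Pcl site nearest to them (horizontal axes), for all near regions (left) and those within 2 kb (right), with exact Poisson 95% intervals and the number of regions. On the left the 4 kinds lie between 5.65 and 7.83 per Mb; on the right lone peaks stand at 28.0 per Mb and the inside of clusters at 4.9986.

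Seen from the Pcl side, 28 of the 277 lone merged Pcl peaks had a near region within 2 kb and no Jarid2 region of both lists over them, or 10.1% (7.09 to 14.2%). A further 16, or 5.78% (3.59 to 9.18%), were themselves overlapped by a region called in both Jarid2 lists. Of 3918 merged Pcl peaks in clusters, 105 were overlapped, or 2.68% (2.22 to 3.23%), and 20 had a near region within 2 kb, or 0.510% (0.331 to 0.787%). Among clustered Pcl peaks called in both Pcl lists, 6.10% were overlapped (4.99 to 7.44%) and 0.271% had a near region within 2 kb (0.106 to 0.695%). Among clustered Pcl peaks called in 1 Pcl list the shares were 0.614% (0.372 to 1.0106%) and 0.655% (0.404 to 1.06%). Lone peaks called in 1 list had 6.17% overlapped and 11.5% with a near region within 2 kb, and of the 50 lone peaks called in both lists 2 were overlapped and 2 had one. The median width was 815 bp for clustered peaks called in both lists, against 235 bp for clustered and 192 bp for lone peaks called in 1 Pcl list. A wide peak is more easily overlapped than a narrow one, and the part of width in these shares was not tested. Clustered peaks also share their flanks. Open positions within 2 kb came to 1.11 Mb beside the 277 lone peaks, 1.80 Mb inside clusters and 0.684 Mb beside clusters. The 3918 clustered peaks thus had less open flank each, and the part of this in the shares was not tested.

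The Pcl peaks nearest to the near regions were weak and narrow, and so were the Pcl peaks nearest to any open position. Pcl A held the nearest peak for 222 near regions, with a median fold of 2.79 (95% interval of the median 2.72 to 2.92), a lowest fold of 1.74 and a highest of 15.3. Over open positions within 50 kb the median was 2.84, and over all Pcl A peaks on the 4 arms it was 3.06. Pcl B held the nearest peak for 55, with a median fold of 3.37 (3.10 to 3.52) and a range of 2.43 to 5.48, against 3.52 over positions and 4.06 over all its peaks. Nearest peaks thus had lower median folds than their list in both libraries, and lay close to what open positions gave. Their median width was 234 bp in Pcl A (219 to 245) and 174 bp in Pcl B (159 to 192). The lists' own medians were 323 and 271 bp, and those over open positions 229 and 187 bp. Over both lists, 8 near regions, or 2.89%, had a nearest Pcl peak wider than 1000 bp, against 2.93% of positions. In 2 near regions the nearest Pcl peak had a fold over 10, a count given without a share of positions and so a description. Within 2 kb the nearest peak had a median width of 178 bp, against 223 bp over positions within 2 kb, and a median fold of 2.87 against 2.97. These medians pool both Pcl lists. Pcl A held 71.2% of the nearest peaks of regions within 2 kb, against 79.9% over positions. The part of this difference in the medians was not tested.

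**Figure D3:**
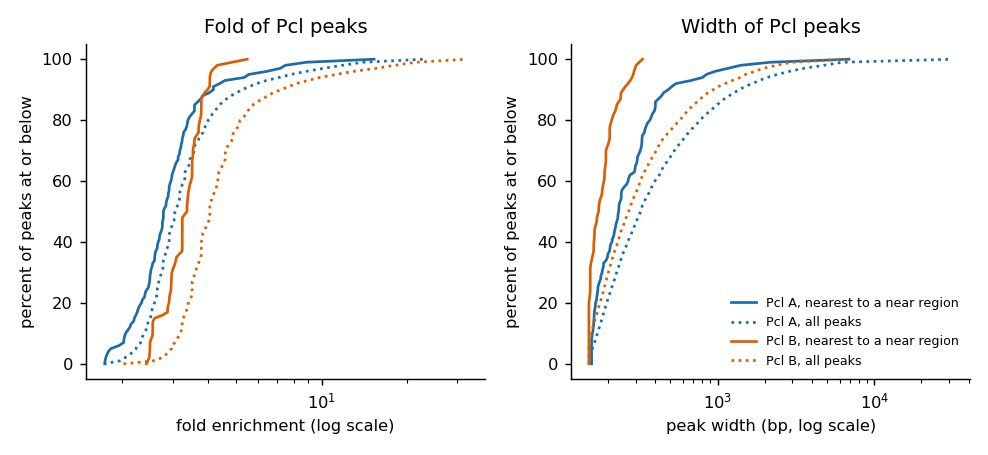
Percent at or below a given fold (left) or width in bp (right), on log axes, in Pcl A (blue) and Pcl B (orange). Solid lines take the nearest Pcl peak of each near region, so a peak nearest to several regions counts once for each. Dotted lines take all peaks of the list on the 4 arms. Each solid line lies left of its dotted line over most of its course, with medians of 2.79 against 3.06 in fold for Pcl A and 3.37 against 4.06 for Pcl B.

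The 277 near regions shared 214 nearest Pcl peaks, and 47 of these peaks were nearest to more than 1 region, so neighbouring regions are not independent. Both Pcl lists held a peak within 50 kb of 156 near regions, or 56.3%. Pcl A alone did for 96, or 34.7%, and Pcl B alone for 25, or 9.03%. Open positions were not split in this way, so these counts are a description and not a trait of the near regions. Taken separately, Pcl A had 40.4% of the 624 Jarid2-only regions within 50 kb, against 37.3% of open positions, and Pcl B 29.0%, against 27.3%. The nearest peak belonged to a Pcl region of both lists in 59 near regions, or 21.3%, against 20.5% of positions.

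Of the 5 near regions with the strongest nearest Pcl peak, 1 lay within 2 kb of it. On 3R from 17175113 to 17175388, the nearest Pcl peak was 27772 bp away, with a fold of 15.3 in Pcl A and a width of 2736 bp; the Jarid2 folds there were 2.74 in A and 2.71 in B. On 2L from 3656517 to 3657034, a Pcl A peak with a fold of 12.3 and a width of 6894 bp began 254 bp away. Jarid2 A had a fold of 5.0007 there and Jarid2 B one of 6.97, the latter the highest among the near regions in that list. It lay inside a cluster of 16 merged Pcl peaks spanning 30646 bp. The next 3 by fold percentile of the nearest Pcl peak were on 3L from 7972104 to 7972461 (nearest Pcl fold 8.90 at 9546 bp), on 3L from 4073769 to 4074058 (8.62 at 11614 bp) and on 3R from 7774552 to 7774899 (7.47 at 11664 bp). All 5 of these Pcl peaks belonged to Pcl regions of both lists.

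The Jarid2 signal itself was about the same near Pcl and away from it. In Jarid2 A the median fold was 3.42 in near regions (95% interval of the median 3.33 to 3.65, range 1.84 to 8.14) and 3.39 in far regions (3.32 to 3.56, range 1.87 to 8.99). In Jarid2 B it was 2.98 in near regions (2.82 to 3.14, range 1.70 to 6.97) and 2.95 in far regions (2.82 to 3.06, range 1.78 to 6.11). The medians thus differed by less than their intervals in both libraries. Folds over 5 in both libraries were found in 7 near regions, or 2.53%, and in 2.31% of far regions. The median width was 305 bp for near regions (298 to 324) and 316 bp for far regions (307 to 330). A q at or below 1e-05 in both Jarid2 lists was reached by 55.2% of near and 53.9% of far regions. The summits in Jarid2 A and B lay within 50 bp of each other in 75.8% of near regions (Wilson 95% interval 70.4 to 80.5%) and in 86.2% of far regions (82.1 to 89.4%), the only one of these measures whose intervals did not overlap. The median offsets were 24 and 18 bp.

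Fold did not follow distance among the near regions. Spearman's rho between distance and fold came to 0.011 for Jarid2 A and to -0.000683 for Jarid2 B, over 277 regions of the same libraries, given as a description. In Jarid2 A the median fold was 3.54 within 2 kb (3.22 to 3.74) and 3.55 between 25 and 50 kb (3.28 to 3.90). In Jarid2 B these medians were 2.98 (2.82 to 3.36) and 3.11 (2.71 to 3.28). In both libraries the median of each of these bands lay inside the interval of the other. Fold in the 2 Jarid2 libraries was only loosely related, with a rho of 0.36 over the near regions and 0.32 over the far ones.

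**Figure D4:**
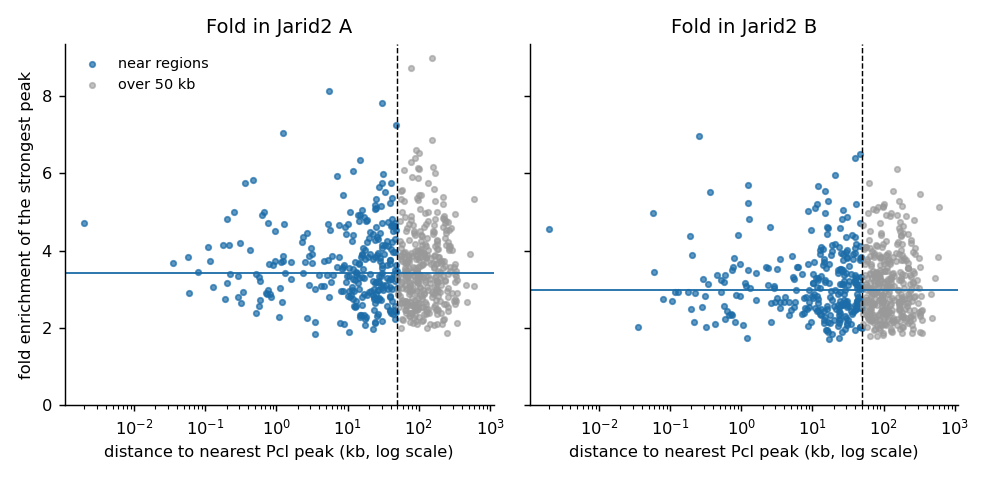
Fold of the strongest peak (vertical axis) against distance to the nearest Pcl peak in kb (log axis) for each Jarid2-only region, in Jarid2 A (left) and Jarid2 B (right). Blue points are the 277 near regions, grey points the 347 far regions, the dashed line is the limit of 50 kb and the blue line the near regions' median, 3.42 in A and 2.98 in B; the cloud keeps its height across the limit.

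The 5 near regions with the highest Jarid2 fold by mean rank over both libraries had different Pcl surroundings. The first, on 3L between 14543497 and 14544217, reached a fold of 6.07 in Jarid2 A (summit at 14544023) and 5.67 in Jarid2 B (summit at 14543992). Its nearest Pcl peak lay 11859 bp away, at the edge of a cluster. The second, on 3L between 20533134 and 20533651, stood 1225 bp from a lone Pcl A peak and had folds of 7.03 and 5.22. The third, on 2L between 11057280 and 11057523, stood 360 bp from a lone Pcl A peak and had folds of 5.75 and 5.52. The fourth, on 2L from 7084370 to 7084750, had folds of 5.22 and 6.38 and lay 39063 bp from Pcl. The fifth, on 3R from 26291629 to 26292149, had folds of 6.33 and 4.98 and lay 14957 bp from Pcl. The nearest Pcl peak had a fold of 2.23 to 2.75 in all 5 and was called in Pcl A alone. By fold, these Pcl peaks stood at percentile 28.3 or lower of the Pcl A list. Among all near regions, 61.4% had a nearest Pcl peak called in Pcl A alone, against 62.6% of open positions within 50 kb.

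Most near regions had no other near region close by. Other Jarid2 regions were left out of this count, and no share for far regions or open positions is given beside it. No other near region lay within 10 kb of 224 of them, and the other 53 formed 24 chains. The longest chain had 5 regions on 2L between 14493940 and 14502100, all inside a single Pcl cluster of 34689 bp that held 8 merged Pcl peaks, 7 peaks of Pcl A and 2 of Pcl B. Their Jarid2 A folds were 3.11, 3.36, 3.01, 3.40 and 3.73 from left to right, and their Jarid2 B folds 3.08, 2.67, 3.78, 2.90 and 3.66. The strongest Pcl peak of that cluster had a fold of 6.13. The neighbouring cluster on 2L from 14456240 to 14472661, with 3 merged Pcl peaks, held a further 2 near regions. So 7 of the 12 near regions inside clusters came from 2 adjoining clusters, in a stretch where Jarid2 A alone had 41 peaks and Jarid2 B 14 within 50 kb of the larger cluster's centre. The remaining 5 lay in 5 clusters, 2 more of them on 2L, 2 on 3L and 1 on 3R. In all, 7 clusters held a near region inside, and 83 of the 172 had one inside or within 50 kb of an edge. No background share is given for these counts of clusters, so they are a description.

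**Figure D5:**
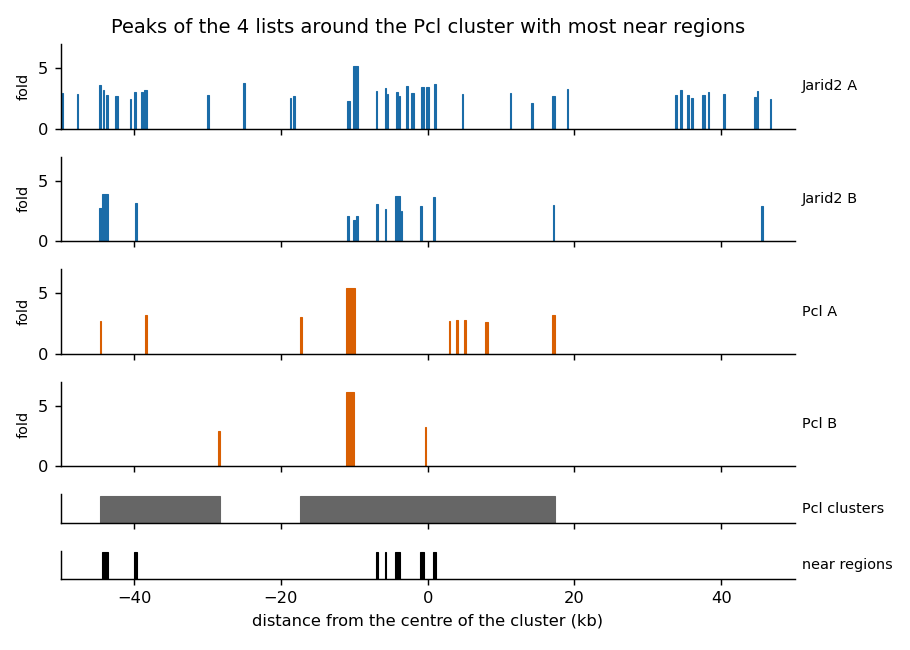
Peaks of the 4 lists as bars of their fold (vertical axes) against distance in kb from the centre of the Pcl cluster that holds most near regions (horizontal axis), with Pcl clusters in grey and near regions in black underneath. The 5 near regions of the cluster and 2 of its neighbour fall in the gaps between Pcl peaks, as the criteria require of regions inside a cluster. Over the whole window Jarid2 A has 41 peaks, some of which overlap Pcl peaks, and Pcl A has 9.

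Chains of 3 were found on 2R from 14237066 to 14244906 and on 3L from 10730331 to 10739903. The first lay 39541 to 46691 bp from a lone Pcl peak with a fold of 4.17 in Pcl A, with Jarid2 A folds of 2.45, 4.04 and 4.29. The second stood on both sides of a lone Pcl A peak of 157 bp with a fold of 1.74, at 2643, 1604 and 5915 bp from it. Its Jarid2 A folds were 2.25, 3.71 and 3.18, and its Jarid2 B folds 2.15, 2.72 and 2.98.

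At the scale of 50 kb, regions where both Jarid2 libraries and at least 1 Pcl library had peaks were not seen to gather around the near regions. Such a region lay within 50 kb of 40 near regions, or 14.4% (10.8 to 19.1%), against 18.6% of open positions within 50 kb of Pcl. It lay within 2 kb of 6, or 2.17% (0.996 to 4.64%). No share of open positions is given at 2 kb, so that count is a description.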

How the data were processed

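The 277 regions and the lists compared here were chosen with earlier results of these data known. Per the labels' protocols, embryos were fixed with 3% formaldehyde for 30 min, and DNA with adaptors of 250 to 500 bp was amplified with 10 to 12 cycles. Each immunoprecipitate came with its own list of peaks, deposited by the authors as narrowPeak text without pooling replicates. The submitters' processing notes name MACS2 2.1.1, Bowtie 1.2.2, Trimmomatic 0.36, deepTools 3.0.2 and build dm3 (Release 5); settings and control are not given in the sources used here. Fold enrichment in the deposited lists is a linear ratio given by the authors' caller, over a background that is not stated. The deposited lists also hold −log10 p and −log10 q, with a smallest −log10 q between 1.31 and 1.35, a score made from q, and a summit offset. Ranks and percentiles of fold were taken within a list. Medians and ranges for the nearest Pcl peak that name no list pool Pcl A and Pcl B, although the 2 lists differ in median fold. Folds depend on each library's background, and unknown depth sets which weak sites pass.

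Distances are bases between edges, from the nearest peak of either Pcl list, and the fold of a region is that of its strongest peak in a list. Open positions are a grid of 100 bp steps that leaves out positions overlapping or touching a Pcl peak. The arms were taken to end at the highest peak end, 95.2 Mb in all. Starts are 1-based. Regions were named by these rules: the 5 highest by Jarid2 fold, the 5 closest to Pcl, the 5 with the strongest nearest Pcl peak, 5 on either side of the limit, the longest chains and the clusters with most regions. No genome or gene table of the build was used, so no sequence is printed, no gene is named, and the planned motif counts were not run. Merging, distances and densities were tested on simulated data, in Python 3.11.15 with pandas 2.3.3, scipy 1.17.1, numpy 2.4.6 and, for plots, matplotlib 3.10.9. The bands of 2 kb and the split by kind of Pcl site were chosen after the values were seen.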

Additional observations from a re-analysis of the deposited data

How the results depend on the processing

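Over 12 results, 124 alternatives were computed, and 45 moved a value outside its 95% interval or a count by over 1.5 times. Causes were not tested, apart from those a setting brings by construction. The number of near regions was 182 with a limit of 25 kb, 431 with 100 kb, 115 with q at or below 1e-05, 101 with lists of equal length (1055 peaks) and 140 when distance was taken to Pcl regions called in both lists. Shorter lists and the stricter q keep fewer peaks by construction. Leaving out each library in turn gave 197 to 624 near regions.

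The density ratio of 0 to 10 kb against 25 to 50 kb was 1.18 (exact 95% interval 0.881 to 1.59). It was 0.750 with Pcl regions of both lists, 0.726 with equal lengths and 0.752 with gaps of up to 1 kb merged, which leaves out the first kb. Without each library it was 0.929 to 1.47. The ratio of 0 to 2 kb against 2 to 50 kb was 0.669, 0.761 and 0.826 in the same 3 settings, the last of which leaves out the first kb, and 1.06 to 2.10 without each library. The density within 2 kb of lone Pcl peaks was 8.30 per Mb with equal lengths, 15.2 with the stricter q and 20.4 to 58.8 without each library. With gaps merged it was 10.8 per Mb, a value that also leaves out the first kb. These last 2 results were chosen after the data were seen.

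The median distance was 24403.5 bp with Pcl regions of both lists, 20891 bp with equal lengths, 20682.5 bp with gaps merged and 15274.5 to 18570.0 bp without each library. The share inside clusters was 7.86% with Pcl regions of both lists and 1.08% with cluster gaps of 5 kb. It was 0% with equal lengths, with gaps merged and with the stricter q, and 1.56% to 6.73% without each library. With the stricter q the median Jarid2 A fold was 3.79 in near and 3.88 in far regions, and the Jarid2 B fold 3.38 and 3.48. With equal lengths the Jarid2 A fold was 3.72 and 3.71. Without each library it was 3.00 to 3.49 and 3.04 to 3.45 in Jarid2 A, and 2.97 to 2.99 and 2.95 to 2.99 in Jarid2 B. The nearest Pcl peak had a median fold of 4.22 with Pcl regions of both lists, 5.37 with equal lengths, 3.36 with the stricter q and 2.79 to 3.60 without each library. Its median width was 495, 886 and 313 bp in these 3 settings and 217 to 237 bp without each library. With Pcl regions of both lists, the fold was the higher of the 2 lists and the width that of the merged region. Those values are thus not the same measure as the single-peak values of the other settings.

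No paired analysis was possible because the results are counts, shares and densities that come from no test. Read depth is unknown, which limits every count of sites absent from a list.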

Other observations

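On the X chromosome 40 of 89 Jarid2-only regions lay within 50 kb of a Pcl peak, or 44.9% (Wilson 95% interval 35.0 to 55.3%), against 40.2% of open positions there. Their density was 5.85 per Mb within 2 kb of Pcl (6 regions, exact Poisson 95% interval 2.15 to 12.7) and 4.57 per Mb between 2 and 50 kb (34 regions, 3.17 to 6.39). These intervals overlapped, and the first also overlapped the 9.85 to 17.3 per Mb found within 2 kb on the large autosome arms. On chromosome 4 there were 2 Jarid2-only regions, both within 50 kb of a Pcl peak, where 95.5% of open positions were.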
